A study of Mus musculus with 74 samples.

Results

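The genes examined here encode the type I TGF-β receptor and its 2 accessory receptors: Tgfbr1, Tgfbr3 and Eng. They were taken as the probes whose single gene symbol in the platform annotation is one of these names, which gave 5 probes and 3 genes out of 7348 probes and 5844 genes with such a symbol. Tgfbr1 was represented by probe 2864, Tgfbr3 by probes 5288, 7348 and 7791, and Eng by probe 3180, and every probe was kept separate. No measured value entered that choice.

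TGF-β signals through a complex of type I and type II serine/threonine kinase receptors. The type II receptor binds the ligand and phosphorylates the type I receptor, encoded by Tgfbr1 (ALK5), which in turn phosphorylates the signal transducers Smad2 and Smad3. Betaglycan, the product of Tgfbr3, and endoglin, the product of Eng, are membrane glycoproteins without kinase activity. Betaglycan presents ligand, TGF-β2 above all, to the kinase receptors, and its shed ectodomain can sequester ligand. Endoglin is most abundant in endothelial cells, where it takes part in TGF-β and BMP signalling, and is also found on activated macrophages and many mesenchymal cells.

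The study followed the transcriptional response of mouse cells to TGF-β on 74 dual-channel arrays of 8976 probes. The labels name 5 lines or conditions (S2WT, S3WT, S2KO, S3KO and U0126) and 5 times (0, 0.3, 1, 2 and 4 h), with 3 arrays for each line and time except S3KO at 1 h, which has 2. From 0.3 h on, channel 1 held RNA without TGF-β and channel 2 RNA with TGF-β, whereas on the 0 h arrays both channels held untreated RNA. U0126 is an inhibitor of the MAP kinase kinase MEK, and the channel labels of those arrays name S2WT together with U0126 with and without TGF-β. S2KO and S3KO are read here as Smad2 and Smad3 knockout cells and S2WT and S3WT as their wild-type counterparts, which is background on the study and is not spelled out in the labels. The labels give no tissue, cell type, clone, TGF-β dose or U0126 dose, and nothing states that the numbered arrays came from separate cultures, so the p-values rest on variation among arrays that may be no more than technical. Some labels conflict: the titles place 3 S2WT arrays at 4 h while their channel labels read 2 h, and both channels of the S3KO 0.3 h arrays are labelled as free of TGF-β. The U0126 titles read S2WT_vs_U0126, which could mean inhibitor against no inhibitor. For U0126 the channel labels were followed, so every U0126 value below is TGF-β against none only if those labels are right. For the S2WT 4 h and S3KO 0.3 h arrays the titles were followed. Every S2WT value at 4 h below thus belongs to that time only if the titles are right.

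Each value below is a log2 ratio of the 2 channels after subtraction of the array's median, so that 0 is the level of the typical probe on that array. A ratio gives no level of the transcript, and fewer cells of a type cannot be told apart from less RNA per cell. A positive value is read as higher with TGF-β. That direction is likely, not stated in the labels: on the treated wild-type arrays (1, 2 and 4 h) the mean log2 ratio of Hbegf was 1.91 in S2WT and 1.46 in S3WT, and that of Gadd45b 1.80 and 1.41, both genes known to be induced by TGF-β. The other 6 probes of induced genes examined (Bhlhe40, Klf10, Skil, Smad7 and Snai1) gave 0.40 to 1.40 in S2WT and -0.03 to 1.07 in S3WT, where the Smad7 probes were lowest at -0.03 and 0.12. Between 7688 and 8713 probes were measured per array, and array medians as deposited lay between -0.60 and 0.22. Over 2244 probes measured on every array, 3 S3KO arrays correlated below 0 with the mean 0 h profile of the other lines, namely S3KO 1 h replicate 2 (r = -0.38), 0 h replicate 1 (r = -0.16) and 0 h replicate 2 (r = -0.10).

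Tgfbr1 lies on chromosome 4 at chr4:47353222-47414926 (gene ID 21812), Tgfbr3 on chromosome 5 at chr5:107106567-107289629 (21814) and Eng on chromosome 2 at chr2:32646595-32682669 (13805), in RefSeq coordinates on GRCm38.p6. The deposited values carry no positions, and where each probe lies within its gene is not given. The 250 bases upstream of the annotated start of Eng and of both annotated starts of Tgfbr1, from RefSeq on GRCm38.p6, are shown. The upstream sequence of Tgfbr3 was not in the sources used here. Letters in capitals mark CAGAC, the core of Smad-binding sites, or its reverse complement GTCTG. All 3 windows lie on the plus strand, at chr2:32646345-32646594, chr4:47352972-47353221 and chr4:47385966-47386215.
Eng: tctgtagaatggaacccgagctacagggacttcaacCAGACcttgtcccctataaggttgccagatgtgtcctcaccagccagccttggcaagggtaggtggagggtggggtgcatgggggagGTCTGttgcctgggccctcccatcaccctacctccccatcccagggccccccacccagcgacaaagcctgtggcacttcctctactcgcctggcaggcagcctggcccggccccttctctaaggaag
Tgfbr1 first start: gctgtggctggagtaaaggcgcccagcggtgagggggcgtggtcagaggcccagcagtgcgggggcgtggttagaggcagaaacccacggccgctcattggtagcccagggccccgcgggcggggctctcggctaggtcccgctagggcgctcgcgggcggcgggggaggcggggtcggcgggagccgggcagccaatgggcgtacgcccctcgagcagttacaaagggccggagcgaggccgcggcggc
Tgfbr1 second start: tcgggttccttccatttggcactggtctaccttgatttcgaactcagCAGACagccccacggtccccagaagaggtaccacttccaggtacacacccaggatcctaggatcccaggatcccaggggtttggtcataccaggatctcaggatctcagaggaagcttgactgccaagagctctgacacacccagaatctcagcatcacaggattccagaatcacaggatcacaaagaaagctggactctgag

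The Eng window held 2 matches to CAGAC, the window of the first Tgfbr1 start 0 and that of the second start 1. CAGAC or its complement was present in 42.2% of the 32851 windows of the same length, so its presence is common. None of the 3 windows held the palindrome GTCTAGAC (in 0.167% of all windows), the AP-1 site TGACTCA (4.46%) or the Snail-type E-box CACCTG (17.2%), searched on both strands. No one of these 4 motifs contains another. GC content was 62.4% upstream of Eng, 74.8% upstream of the first Tgfbr1 start and 52.8% upstream of the second. A match describes letters only, and its absence says only that these letters are not in the window.

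Against the mean of all lines' 0 h arrays, Tgfbr1 rose in S2KO and Tgfbr3 fell in S2WT and S2KO, most at 4 h. Eng also fell in S2KO, with its lowest mean at 2 h (-1.16, 2 arrays) and -0.66 at 4 h. The response of a line was taken as its mean over 1, 2 and 4 h less the mean of all 5 lines' 0 h groups, and was tested by limma's moderated test with Benjamini-Hochberg adjustment over all tested probes, and a probe is called where the adjusted p is under 0.05. The lines share these 0 h arrays, so their responses are not independent. This baseline also assumes that the lines have a common background. Of the 25 pairs of probe and line, 5 were called, 1 higher and 4 lower. All 5 lay in S2WT (2 of 5 probes) and S2KO (3 of 5). For comparison, 1.27% of all tested probes were called in S2WT and 2.49% in S2KO. In S3WT, S3KO and U0126, where 0.146%, 0.0141% and 0.782% of probes were called, no probe of these genes was called in that comparison. Against the line's own 0 h arrays, no probe of these genes was called in S2WT or S2KO, where 0.192% and 0.515% of all probes were called. At 4 h alone, Tgfbr3 probe 7348 was also called lower in U0126 (-0.95, limma adjusted p = 0.0295), where 1.19% of all probes were called.

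**Figure D1:**
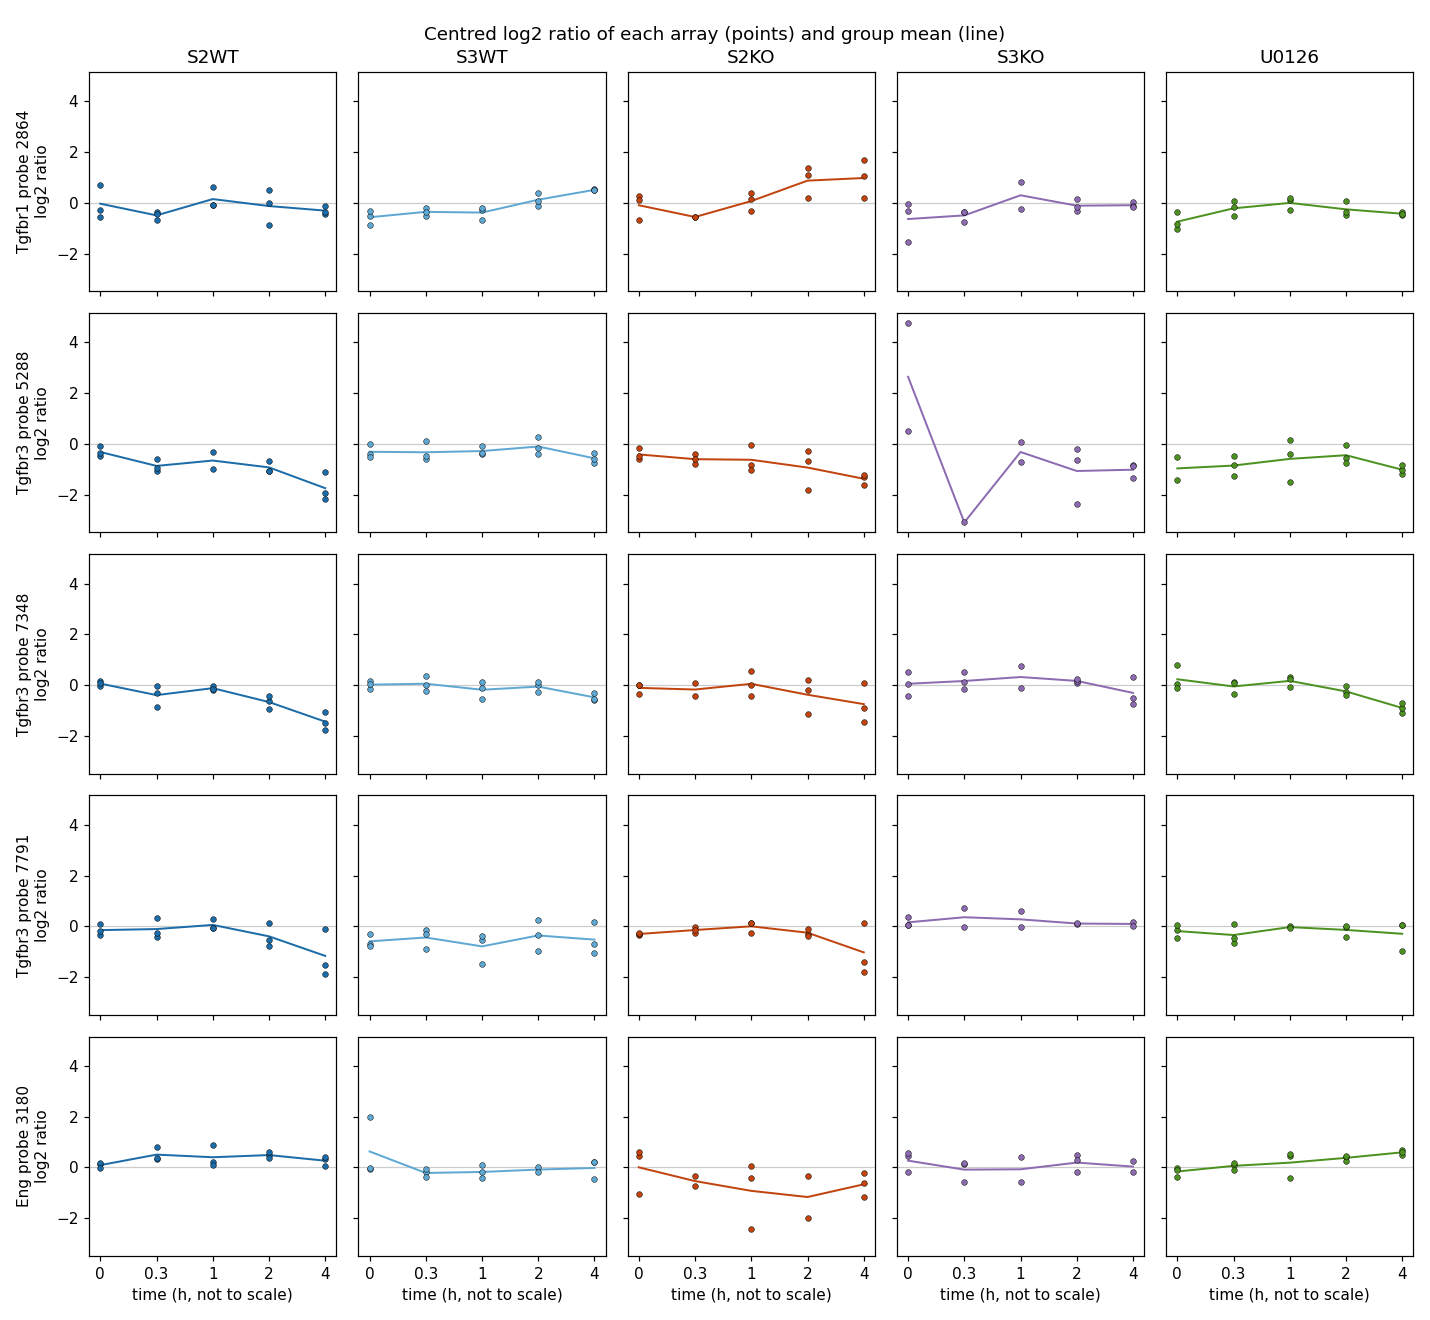
Centred log2 ratio (channel 2 over channel 1) of each array against time for the 5 probes (rows) in the 5 lines (columns). Points are arrays and lines join group means of up to 3 arrays, with times evenly spaced and not to scale. Tgfbr1 in S2KO reaches a mean of 0.98 at 4 h, Tgfbr3 probe 7348 in S2WT reaches -1.44, and the point at 4.77 for Tgfbr3 probe 5288 is S3KO 0 h replicate 2. The S3KO 0.3 h mean of that probe is a single array.

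Tgfbr1, the kinase that activates Smad2 and Smad3, changed most in S2KO. There the ratios at 0 h were -0.68, 0.26 and 0.13, and on the 2 arrays measured at 0.3 h -0.54 and -0.58. They were -0.32, 0.38 and 0.14 at 1 h, 1.35, 0.18 and 1.09 at 2 h, and 1.69, 0.18 and 1.06 at 4 h. Replicates 1 and 3 were high at 2 and 4 h, while replicate 2 stayed at 0.18, below its own 0 h value. All 9 treated arrays lay above the pooled 0 h mean of -0.42, but their range overlapped that of the 15 arrays at 0 h (-1.54 to 0.71). Against the pooled 0 h arrays, Tgfbr1 rose in S2KO by 1.06 ± 0.17 on the log2 scale (SE; limma adjusted p = 6.94e-05). Leaving out any one of the 24 arrays in that comparison kept the call, with values from 0.94 to 1.19 (0.97 without S3KO 0 h replicate 1, the lowest 0 h array).

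The size of this change varied with the baseline. S2KO's own 0 h mean for Tgfbr1 was -0.10, higher than the pooled mean, and against its own 0 h arrays the change was 0.74 (95% interval 0.18 to 1.29, adjusted p = 0.353), which was not called. It was 0.44 without S2KO 0 h replicate 1 and 0.92 without replicate 2. Responses against own 0 h arrays were called for 0.515% of probes in S2KO. With the line's own 0 and 0.3 h arrays as baseline, the Tgfbr1 change was 0.97 ± 0.23 (SE, limma adjusted p = 0.0291) and was called. The 0.3 h arrays already held RNA with TGF-β in channel 2, and the share of all probes called with that baseline was not counted. At 4 h alone, a comparison added after the data were seen, Tgfbr1 in S2KO was higher than the pooled 0 h arrays by 1.39 ± 0.26 (SE, adjusted p = 0.000638), where 3.86% of all probes were called. Without 4 h replicate 1 that value was 1.04 and the call was lost (adjusted p = 0.0876), as it was in a fit to the S2KO and 0 h arrays alone (adjusted p = 0.0657).

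In the other lines, Tgfbr1 was not called at equal weight for each array. In S3WT the ratios were -0.86, -0.51 and -0.34 at 0 h and -0.28, -0.66 and -0.21 at 1 h. They were 0.39, -0.11 and 0.08 at 2 h and 0.54, 0.49 and 0.50 at 4 h, so the 4 h arrays lay close together and above every 0 h array of that line. The 4 h value against the pooled 0 h arrays was 0.93 ± 0.26 in S3WT (SE, adjusted p = 0.119), and 0.298% of all probes were called there. With arrays weighted by their fit it was 0.90 and was called (adjusted p = 0.0414). S2WT ran from -0.88 to 0.71 over its 0, 1, 2 and 4 h arrays, with 4 h arrays at -0.45, -0.13 and -0.35 and no order from 0 to 4 h. In U0126 the 4 h arrays stood at -0.38, -0.47 and -0.45, against -1.02, -0.85 and -0.36 at 0 h. The S3KO ratios were -1.54, -0.34 and -0.05 at 0 h, 0.82 and -0.23 at 1 h, and 0.01, -0.12 and -0.18 at 4 h. The S3KO response against pooled 0 h arrays was 0.45 (95% interval 0.08 to 0.82) as deposited and 0.17 with the sign of S3KO 1 h replicate 2 turned. Against own 0 h arrays it was 0.67 (95% interval 0.10 to 1.24), and 0.22 without S3KO 0 h replicate 1, the array at -1.54. Ordered by their 4 h means, the lines ran from S2KO (0.98 ± 0.76, SD, n = 3) through S3WT (0.51 ± 0.02), S3KO (-0.10 ± 0.10) and S2WT (-0.31 ± 0.17) to U0126 (-0.43 ± 0.05). The arrays of neighbouring lines in this order overlapped, except that each S3WT array exceeded each S3KO array.

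Tgfbr3, which encodes betaglycan, was lower with time in S2WT on all 3 of its probes, and 2 of them were called. On probe 7348, measured on 73 arrays, the S2WT ratios were 0.16, -0.05 and 0.07 at 0 h, -0.04, -0.84 and -0.30 at 0.3 h, and -0.03, -0.18 and -0.15 at 1 h. They were -0.62, -0.96 and -0.42 at 2 h and -1.48, -1.06 and -1.77 at 4 h. The 4 h arrays were below every other array of that line, and the 1 h arrays overlapped those at 0 h. Over 1 to 4 h, probe 7348 fell in S2WT by 0.79 ± 0.16 on the log2 scale (SE, adjusted p = 0.0034), with 9 of 9 treated arrays below the pooled 0 h mean of 0.05. At 4 h alone it fell by 1.49 ± 0.24 (adjusted p = 0.000181), in a comparison that called 1.45% of all probes. Both calls held when any one array was left out, at -0.86 to -0.74 over 1 to 4 h and -1.68 to -1.32 at 4 h. Against the line's own 0 h arrays the change was of the same size, -0.80 (95% interval -1.31 to -0.30), but the adjusted p was 0.225, in a comparison that called 0.192% of all probes.

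Probe 7348 was also called lower at 4 h in S2KO and U0126. The U0126 arrays read 0.04, 0.78 and -0.13 at 0 h, 0.33, -0.06 and 0.23 at 1 h, -0.29, -0.40 and -0.05 at 2 h, and -1.10, -0.89 and -0.71 at 4 h. All 3 U0126 arrays at 4 h lay below all others of that condition. The 4 h difference from the pooled 0 h arrays was -0.95 ± 0.24 (SE, adjusted p = 0.0295) in U0126, where 1.19% of all probes were called, and the call was lost without any one of the 3 arrays at 4 h (values of -1.05 to -0.85). In S2KO the 4 h arrays were uneven, at -0.89, 0.08 and -1.44, so replicate 2 stood apart as it did for Tgfbr1. The S2KO difference was -0.80 ± 0.24 (SE, adjusted p = 0.0443), and the call held in 9 of 18 fits with one array left out, with values from -1.21 without replicate 2 to -0.46 without replicate 3. Of 10 other processing settings, 5 kept it. In S3WT the 4 h arrays, at -0.60, -0.53 and -0.32, were below all 0 h arrays of that line (-0.16 to 0.18), with a difference of -0.53 (95% interval -1.01 to -0.05, adjusted p = 0.628). S3KO spread from -0.75 to 0.32 at 4 h, with a difference of -0.36 (95% interval -0.84 to 0.12), in a comparison that called 0.117% of probes.

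Probe 5288 had a lower mean at 4 h than at 0 h in every line, but by little in U0126 (-1.02 against -0.96, the latter on 2 arrays). In S3WT the means were -0.57 at 4 h and -0.31 at 0 h. The 0 h baseline of this probe was uneven. All 15 arrays at 4 h were below 0, but so were 10 of the 13 measured at 0 h. In S2WT the ratios were -0.49, -0.37 and -0.09 at 0 h, -0.99 and -0.32 at 1 h, -1.07, -0.66 and -1.05 at 2 h, and -1.94, -1.12 and -2.17 at 4 h. In S2KO they were -0.58, -0.49 and -0.17 at 0 h and -1.29, -1.21 and -1.61 at 4 h. In both lines each 4 h array was below each 0 h array. Against the pooled 0 h arrays probe 5288 fell in S2WT by 1.24 ± 0.29 (SE, adjusted p = 0.0189) and in S2KO by 1.10 ± 0.28 (adjusted p = 0.0189).

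Those sizes rested in part on S3KO 0 h, where probe 5288 read 0.53 and 4.77 on the 2 arrays measured, a mean of 2.65 against -0.32 in S2WT and -0.41 in S2KO. With S3KO left out of the pool the change was -0.61 in S2WT (adjusted p = 0.508) and -0.48 in S2KO (adjusted p = 0.563). With replicate 2 of S3KO 0 h left out, and 1 array per group allowed since the probe could otherwise not be tested, it was -0.81 ± 0.23 (SE, adjusted p = 0.0677) in S2WT and -0.68 ± 0.22 (adjusted p = 0.0997) in S2KO. At 4 h the values against the full pool were -1.87 ± 0.41 in S2WT (adjusted p = 0.00875) and -1.50 ± 0.41 in S2KO (adjusted p = 0.0269). Without S3KO in the pool they were -1.24 (adjusted p = 0.179) and -0.87 (adjusted p = 0.351), and with replicate 2 left out in the same way they were -1.45 (adjusted p = 0.00716) and -1.08 (adjusted p = 0.0408). The 4 h calls were also lost without 4 h replicate 1 or replicate 3 of the line concerned, and the S2KO call over 1 to 4 h without 2 h replicate 1 (-0.96, adjusted p = 0.0683). Scaling the arrays to a common spread ended all 4 of these calls, with adjusted p from 0.0521 to 0.174.

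The S3KO response of probe 5288 against its own 0 h arrays was -3.45 ± 0.51 (SE, adjusted p = 0.000152), and 1.53% of probes were called in that comparison. The treated S3KO arrays read 0.08 and -0.72 at 1 h, -0.21, -0.63 and -2.35 at 2 h, and -0.83, -0.86 and -1.35 at 4 h. The single 0.3 h array measured read -3.09. Without S3KO 0 h replicate 2, and with 1 array per group allowed, the value was -1.33 ± 0.50 (adjusted p = 0.327). It was the one call among the 25 pairs of probe and line tested against own 0 h arrays. In S2WT, S3WT and U0126, 0.192%, 0.12% and 0.0719% of all probes were called in that comparison. The other Tgfbr3 probes did not show this pattern, with S3KO responses of 0.0066 (95% interval -0.51 to 0.52) on probe 7348 and 0.0024 (-0.65 to 0.65) on probe 7791.

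Probe 7791 was the least regular of the 3. In S2WT it read -1.52, -0.10 and -1.88 at 4 h against -0.33, 0.08 and -0.20 at 0 h, so replicates 1 and 3 fell below every 0 h array and replicate 2 did not. In S2KO the 4 h arrays read -1.40, 0.13 and -1.81, again with replicate 2 apart. The 4 h differences were -0.95 ± 0.29 in S2WT (SE, adjusted p = 0.092) and -0.81 ± 0.29 in S2KO (adjusted p = 0.11), neither called. Single arrays moved them widely: they were -1.48 (adjusted p = 0.00725) and -1.39 (adjusted p = 0.00239) without replicate 2 at 4 h, but -0.60 (adjusted p = 0.721) and -0.42 (adjusted p = 0.817) without replicate 3. In S3WT this probe was already low at 0 h (-0.72, -0.78 and -0.29) and read 0.15, -1.05 and -0.68 at 4 h. S3KO ran from -0.04 to 0.74 over all times, with 0.17 and 0.02 on the 2 arrays measured at 4 h. U0126 read -0.98, 0.05 and 0.05 at 4 h.

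**Figure D2:**
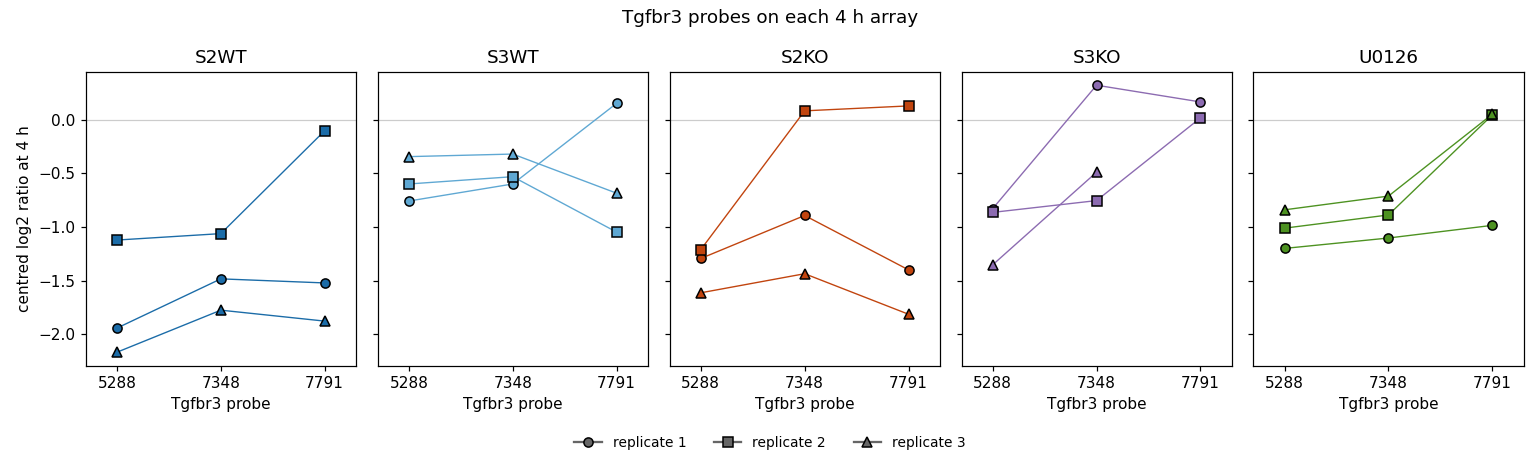
Centred log2 ratio of the 3 Tgfbr3 probes on each 4 h array, by line. Each line joins the probes on one array, and the marker gives the replicate number. Probe 5288 is below 0 on all 15 arrays, probe 7348 on 13 of 15 and probe 7791 on 8 of 14. Replicate 2 of S2KO is high on probes 7348 and 7791 and low on probe 5288.

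The 3 probes agreed better at 4 h than over all arrays. Pearson's r over arrays was 0.42 between probes 5288 and 7348 (68 arrays), 0.52 between 7348 and 7791 (69 arrays) and 0.23 between 5288 and 7791 (66 arrays). At 4 h these were 0.71 (15 arrays), 0.71 (14) and 0.66 (14). The points share arrays and lines, and the values are a description. With the 3 probes averaged on each array, Tgfbr3 changed in S2WT by -0.71 ± 0.17 over 1 to 4 h (SE, adjusted p = 0.0208) and by -1.40 ± 0.26 at 4 h (adjusted p = 0.00136). In S2KO the averaged values were -0.54 ± 0.17 over 1 to 4 h (adjusted p = 0.0826) and -1.003 ± 0.258 at 4 h (adjusted p = 0.0154). The averaged 4 h values of -0.48 in S3WT (adjusted p = 0.832), -0.48 in S3KO (0.9997) and -0.69 in U0126 (0.255) were not called.

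Eng, the gene of endoglin, fell in S2KO and was not called in the other lines. Its S2KO ratios were -1.06, 0.46 and 0.61 at 0 h and -0.72 and -0.35 on the 2 arrays measured at 0.3 h. They were 0.07, -0.40 and -2.43 at 1 h, -2.01 and -0.32 at 2 h, and -1.18, -0.21 and -0.60 at 4 h. The treated arrays were widely spread and overlapped the 0 h arrays of the line, 1 of which was itself at -1.06. Against the pooled 0 h arrays, with a mean of 0.17, Eng fell in S2KO by 1.08 ± 0.24 (SE, adjusted p = 0.00423), with 8 of 8 treated arrays below that mean. The call held in each of the 22 fits with one array left out in which it could be tested, with values from -1.25 to -0.83, the smallest without 1 h replicate 3. It was lost in a fit to the S2KO and 0 h arrays alone (adjusted p = 0.191). Against the line's own 0 h arrays the change was -0.92 (95% interval -1.66 to -0.18, adjusted p = 0.417), with -1.45 when 0 h replicate 1 was left out and -0.62 when replicate 3 was. At 4 h alone the change against the pooled arrays was -0.83 (95% interval -1.52 to -0.14, adjusted p = 0.198).

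The remaining lines showed small positive or negative Eng ratios. S2WT read 0.12, 0.18 and -0.02 at 0 h, 0.33, 0.38 and 0.82 at 0.3 h, 0.22, 0.09 and 0.90 at 1 h, 0.47, 0.38 and 0.61 at 2 h, and 0.35, 0.41 and 0.04 at 4 h. All 9 treated S2WT arrays were positive, but the response was 0.22 (95% interval -0.24 to 0.68). U0126 arrays read -0.01, -0.09 and -0.38 at 0 h and 0.67, 0.49 and 0.63 at 4 h, so the groups did not overlap, and the 4 h difference was 0.43 (95% interval -0.26 to 1.12, adjusted p = 0.883). S3WT had one high array at 0 h (1.98, with the other two at -0.06 and -0.02) and ran from -0.47 to 0.21 over 1 to 4 h. S3KO ran from -0.56 to 0.48 over the treated arrays. By the mean at 4 h the lines ran from U0126 (0.60 ± 0.09, SD, n = 3) through S2WT (0.27 ± 0.20, n = 3), S3KO (0.04 ± 0.29, n = 2) and S3WT (-0.02 ± 0.39, n = 3) to S2KO (-0.66 ± 0.49, n = 3), and each neighbouring pair other than U0126 and S2WT overlapped.

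**Figure D3:**
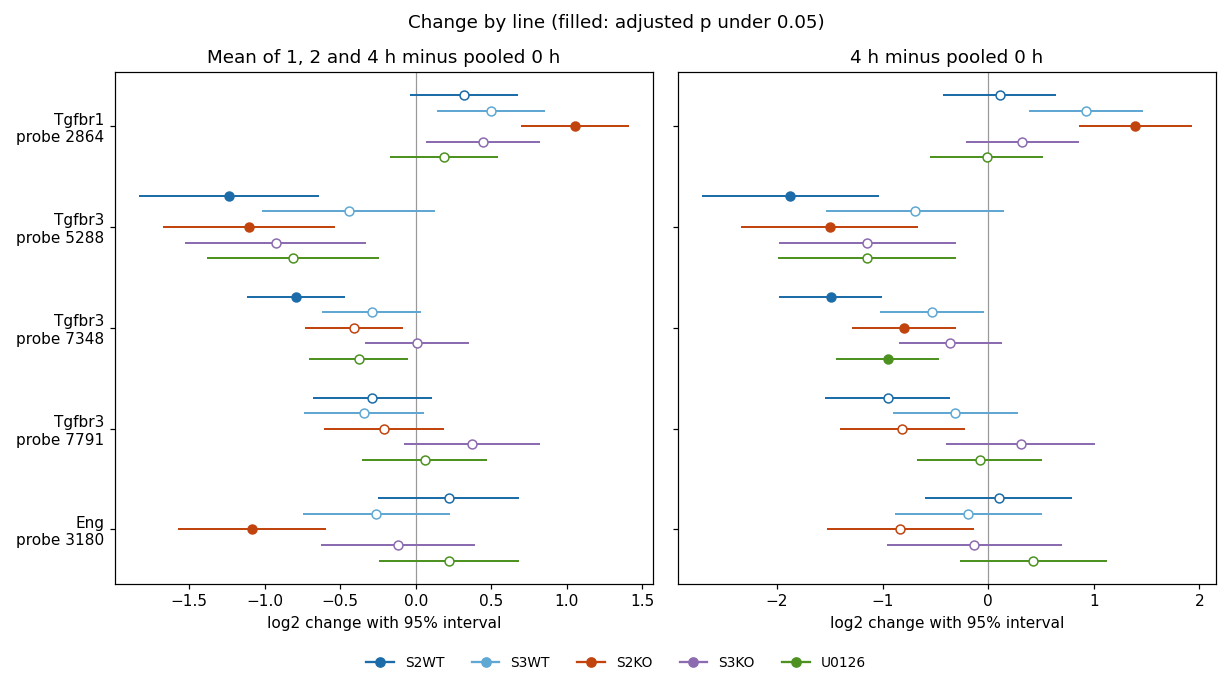
Change of each probe in each line on the log2 scale, with 95% intervals from the limma fit. The left panel gives the mean of 1, 2 and 4 h minus the pooled 0 h arrays and the right panel 4 h minus the pooled 0 h arrays, and filled points have an adjusted p under 0.05. S2KO stands at 1.06 for Tgfbr1 and -1.08 for Eng in the left panel, and S2WT at -1.49 for Tgfbr3 probe 7348 in the right panel.

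The change from 1 to 4 h uses no 0 h array, and limma called none of the 25 pairs of probe and line, of which 7 had an unadjusted p under 0.05. Over all tested probes, such a p was found for 566 of 8659 in S2WT and 392 of 8684 in S3WT. It was found for 786 of 8500 in S2KO, 439 of 7897 in S3KO and 622 of 8651 in U0126. The share of all probes called was highest in S2KO (0.753%), then S3KO (0.19%), U0126 (0.139%), S3WT (0.0576%) and S2WT (0.0231%). Tgfbr3 probe 7348 in S2WT came nearest, at -1.32 ± 0.31 (SE, adjusted p = 0.0528), followed by the same probe in U0126 at -1.07 ± 0.31 (adjusted p = 0.155). Tgfbr1 gave 0.91 ± 0.34 in S2KO (adjusted p = 0.279) and 0.90 ± 0.34 in S3WT (adjusted p = 0.691), with all 3 arrays at 4 h above the 1 h mean in both lines. Its S3KO value was -0.39, which became 0.43 with the sign of S3KO 1 h replicate 2 turned. Eng gave values between -0.14 and 0.41 over the 5 lines.

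Whether the knockouts or the inhibitor differed from wild type was tested directly. On the treated arrays (1, 2 and 4 h), the Eng ratio was lower in S2KO than in S2WT, with a difference of -1.30 ± 0.27 (SE, 95% interval -1.84 to -0.77, adjusted p = 0.011), and 0.326% of all probes were called. The means were -0.92 over 8 S2KO arrays and 0.39 over 9 S2WT arrays. All 8 S2KO arrays lay below the S2WT mean, and the ranges overlapped through S2KO 1 h replicate 1 (0.07) and S2WT 4 h replicate 3 (0.04). The call held in each of the 16 fits with one array left out in which it could be tested (-1.47 to -1.05). It was lost with arrays scaled to a common spread (-1.11, adjusted p = 0.128) and in a fit to the arrays of these lines alone (adjusted p = 0.215). The difference of responses against own 0 h arrays was of like size, -1.22, but with a wide interval (-2.25 to -0.18) and an adjusted p of 0.63, where 0.0386% of probes were called.

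For Tgfbr1, the treated S2KO arrays exceeded the treated S2WT arrays by 0.74 (95% interval 0.34 to 1.13), and the adjusted p of 0.0831 missed the threshold. 8 of 9 S2KO arrays lay above the S2WT mean of -0.10. For Tgfbr3, S2KO minus S2WT was 0.38 (95% interval 0.03 to 0.74) on probe 7348, 0.13 (-0.50 to 0.77) on probe 5288 and 0.08 (-0.36 to 0.51) on probe 7791, none called. A difference between these lines in Tgfbr3 was thus not shown, and intervals of this width leave room for one.

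Between S3KO and S3WT, limma called no probe of the whole array on the treated arrays (0% of 7534 tested, with 448 at an unadjusted p under 0.05). Tgfbr1 differed by -0.05 (95% interval -0.46 to 0.36), or -0.33 with the sign of S3KO 1 h replicate 2 turned. Eng differed by 0.14 (-0.43 to 0.72), or 0.0039 with that sign turned. The largest separation was on Tgfbr3 probe 7791, at 0.72 (0.23 to 1.20, adjusted p = 0.512), where all 6 measured S3KO arrays lay above the S3WT mean of -0.56. Responses against own 0 h arrays differed on probe 5288 by -3.44 ± 0.67 (SE, adjusted p = 0.0178), in a comparison that called 0.126% of probes. That difference again rested on S3KO 0 h replicate 2, without which it was -1.32 ± 0.59 (adjusted p = 0.66).

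Between U0126 and S2WT, limma also called no probe on the treated arrays (0% of 8162 tested, with 398 at an unadjusted p under 0.05) and 0.0252% for the responses against own 0 h arrays, none of them a probe of these genes. Mean Eng ratios were close, with a difference of 0.0023 and a 95% interval from -0.51 to 0.51. Tgfbr1 differed by -0.13 (95% interval -0.53 to 0.26). Mean Tgfbr3 ratios were less negative with U0126, by 0.42 on probes 7348 (0.06 to 0.77) and 5288 (-0.21 to 1.06). On probe 7791 the difference was 0.35 (-0.11 to 0.80), and none was called.

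**Figure D4:**
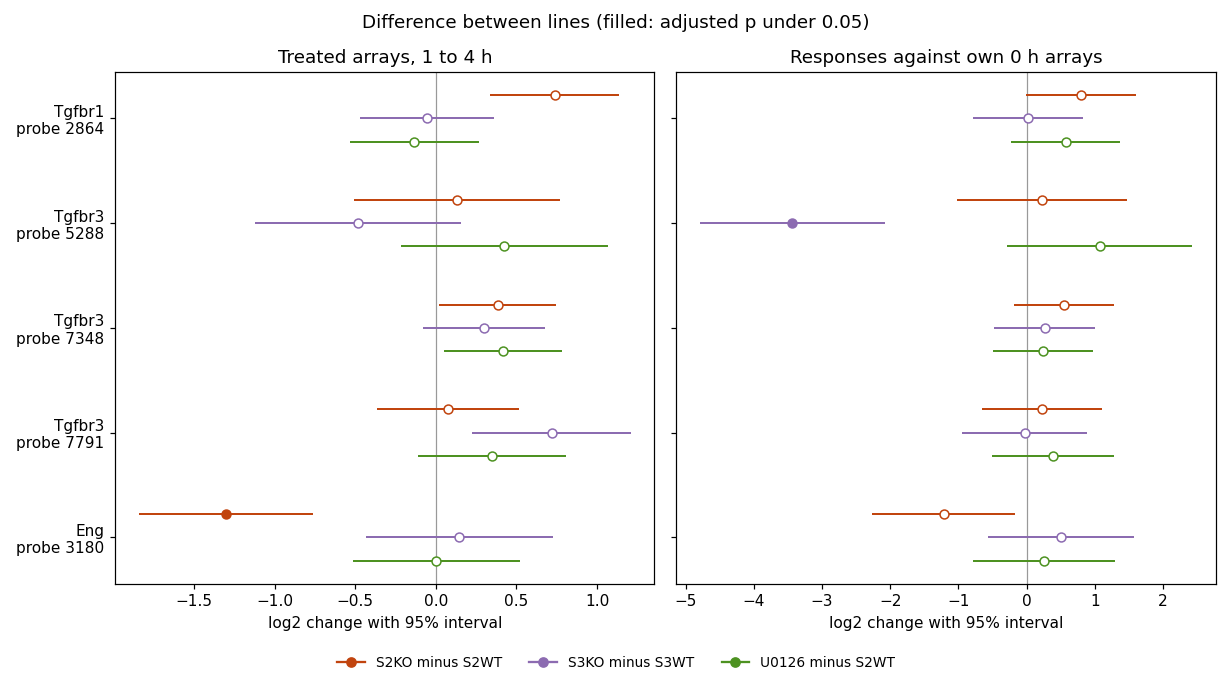
Difference between lines of each probe on the log2 scale, with 95% intervals from the limma fit. The left panel compares the treated arrays (mean of 1, 2 and 4 h) and the right panel the responses against own 0 h arrays, and filled points have an adjusted p under 0.05. Eng at -1.30 for S2KO minus S2WT is the one called value on the left, and Tgfbr3 probe 5288 at -3.44 for S3KO minus S3WT the one on the right.

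Other genes of the pathway were counted from lists of 102 ligands, antagonists, receptors, receptor partners, Smads and Smad regulators, of which 41 had at least 1 probe (67 probes). Against the pooled 0 h arrays, limma called 3 of 61 tested probes higher in S2WT, 4 of 62 in S2KO and 1 of 62 in U0126, and none lower. Over all tested probes the shares called were 1.27%, 2.49% and 0.782%. In S3WT and S3KO it called none of 62 and 59, with 13 and 3 at an unadjusted p under 0.05. Over all tested probes, 636 of 7558 in S3WT and 366 of 7085 in S3KO had such a p. The median change of the listed probes lay between -0.06 and 0.04 in every line, against medians of all tested probes between -0.0014 and 0.0091. Among receptors, 4 of 11 listed genes had a probe (Acvr1, Acvr1b, Acvrl1 and Bmpr2), and Acvr1, a type I receptor of the BMP and activin branch, rose in S2KO by 0.52 ± 0.11 (SE, adjusted p = 0.00298). Skil, a Smad corepressor, rose in S2KO by 1.22 ± 0.15. Smurf1, an E3 ubiquitin ligase that targets TGF-β receptors and Smads, rose in S2KO by 0.62 ± 0.11 and in S2WT by 0.45 ± 0.11. Of the 3 probes of the related ligase Smurf2, probe 5215 rose in S2KO by 0.41 ± 0.07, in S2WT by 0.37 ± 0.07 and in U0126 by 0.35 ± 0.07, while probes 2306 and 4133 were not called in these lines (-0.58 to 0.14). Of the 2 probes of Tgif1, another Smad corepressor, probe 3052 rose in S2WT by 0.47 ± 0.12 and probe 6325 was not called (0.20 ± 0.12). The 17 probes of other co-receptors and receptor partners, the group nearest in role to Tgfbr3 and Eng, had medians of -0.22 in S2WT and -0.06 in S2KO with none called.

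Since endoglin is prominent in endothelial cells and macrophages, their markers were examined in the same comparison. Of 13 endothelial markers 7 had probes, and limma called 0 of 7 tested probes in S2KO (2 at an unadjusted p under 0.05), with a median change of -0.19. In S2WT the median was -0.40 over 6 tested probes, none called or with an unadjusted p under 0.05. The 3 macrophage probes tested in S2KO had a median of -0.67, none called and 1 at an unadjusted p under 0.05, against -0.08 in S2WT. The 9 fibroblast probes had a median of 0.01 in S2KO, with none called and 1 at an unadjusted p under 0.05. Over all tested probes, 1109 of 7444 in S2KO and 930 of 7555 in S2WT had an unadjusted p under 0.05. The part of these markers in the Eng result was not tested.

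The genes whose 25 group means followed each member most closely were ranked by Pearson's r over up to 6961 candidate probes, as a description with no test. For Tgfbr1 these were Acvr1 (r = 0.85), the cleavage and polyadenylation factor gene Cpsf2 (0.78) and the actin-oxidising enzyme gene Mical2 (0.77). Acvr1 stood at 0.61 in S2KO and 0.53 in S3WT at 4 h, the lines in which Tgfbr1 was highest. For Tgfbr3 probe 7348 they were Pcmtd2 (0.90), the lipoprotein receptor gene Vldlr (0.87) and Klhl24 (0.84). Pcmtd2 reached -1.46 in S2WT at 4 h from -0.37 at 0 h. For Eng they were Zfp28 (0.76), Smtnl2 (0.75, over 24 groups) and the microfibril gene Mfap5 (0.72).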

How the data were processed

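The authors deposited signed log2 channel ratios, one per probe and array. The log2 base was read from the values. The steps behind them (background, normalization) were not given in the sources used here. 1344 values above 16.6, a ceiling, were set to missing and each array was centred on its median. Group means of 25 line-by-time groups were fitted over all 74 arrays with R 4.3.3 and limma 3.58.1 (moderated variances, 2-sided, Benjamini-Hochberg over all tested probes, threshold 0.05), after tests on simulated data. A probe was tested with at least 2 arrays in each group of a comparison, and no value was imputed. The number of arrays limits precision. Symbols come from the platform annotation, which gives 399 probes several symbols and 1229 none.

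The members, lists and tests were chosen with earlier results of these data known. Every probe of the 3 genes is reported. Pathway genes are named where called in the pooled comparison, at most 4 per list and line, and the 3 genes most like each member are named by the correlation of group means. The comparison at 4 h alone came later, with the values in view. Alternatives covered baseline, centring, scaling, ceiling, filter, array weights, probe averaging, a replicate block, the lines fitted and single arrays.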

Additional observations from a re-analysis of the deposited data

Results flagged for a closer look

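Eng in S2KO minus S2WT differed on the treated arrays by -1.30 on the log2 scale (95% interval -1.84 to -0.77, limma adjusted p = 0.011). The test of the difference between the lines thus passed the threshold, with any difference in background included. That call was lost with arrays scaled to a common spread (adjusted p = 0.128) and in a fit to the arrays of these lines alone (adjusted p = 0.215). Against own 0 h arrays the same difference was -1.22 (adjusted p = 0.63). The spread of the S2KO arrays, from -2.43 to 0.07, was wider than that of the S2WT arrays, from 0.04 to 0.90.

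Tgfbr3 probe 5288 in S3KO minus S3WT differed in its response against own 0 h arrays by -3.44 (adjusted p = 0.0178). Without S3KO 0 h replicate 2, which read 4.77, the difference was -1.32 (adjusted p = 0.66). On the treated arrays, where no 0 h array enters, it was -0.48 (95% interval -1.12 to 0.15, adjusted p = 0.946).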

How the results depend on the processing

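Counts are of member probes called. The share of all probes called was not counted under these alternatives, so the counts show nothing particular to these genes. Treated arrays tested against 0 gave 10 calls, where own 0 h arrays gave 1 and pooled 0 h arrays 5; with no baseline removed, Tgfbr3 probe 7791 in S3WT turned from 0.03 to -0.56 and probe 5288 in U0126 from 0.28 to -0.68. A pool without S3KO gave 3 calls in place of 5, and 3 in place of 6 at 4 h. Common scaling gave 3 of 5 and 3 of 6, and 0 of 1 for differences of treated arrays. Fits to the compared lines alone gave 0 of 1 (own 0 h), 2 of 5 (pooled), 2 of 6 (4 h), and 0 of 1 for both differences. Array weights gave 2 calls against own 0 h arrays, 1 from 1 to 4 h, 2 for treated arrays and 9 in place of 6 at 4 h, where Tgfbr1 in S3WT, Tgfbr3 probe 7791 in S2KO and probe 5288 in U0126 were gained. Without S3KO 0 h replicate 2, allowing 1 array per group, the counts were 0 (own), 3 (pooled) and 0 (difference of responses), and that difference also gave 0 calls with 0 and 0.3 h arrays as baseline. With the 0 and 0.3 h baseline, Tgfbr3 probe 5288 could not be tested in S3KO, having 1 array measured at 0.3 h. That count of 0 therefore says nothing about its call. Both of these alternatives, and every fit at 4 h alone, were chosen after seeing the data. Leaving out one array in turn gave 0 to 1 (own), 3 to 6 (pooled), 0 to 4 (1 to 4 h), 0 to 1 (difference of responses), 0 to 2 (treated) and 3 to 8 (4 h); the most calls from 1 to 4 h, 4, and at 4 h, 8, came without S2KO 4 h replicate 2. Without S3KO 0 h replicate 1 or replicate 2, Tgfbr3 probe 5288 could not be tested with 2 arrays per group in comparisons that use S3KO 0 h. The cause of these changes was not tested.

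With no centring the typical probe in S2WT moved by -0.17 (pooled) and -0.13 (4 h), and Tgfbr3 probe 7348 in S2WT read -0.98 and -1.64. In the pooled comparison over 1 to 4 h, Tgfbr1 in S2KO stayed called in all 10 alternatives other than leaving out arrays in turn (0.64 to 1.15). The same held for probe 7348 in S2WT (-0.98 to -0.69). These alternatives included a fit without S3KO 0 h replicate 2 and a fit to the averaged probes of a gene. Averaging could not change the Tgfbr1 estimate, which has a single probe. Allowing 1 array per group, with all arrays kept, could change neither estimate. The line's own 0 h baseline was not among these alternatives, and against it neither was called (limma adjusted p = 0.353 for Tgfbr1 in S2KO and 0.225 for probe 7348 in S2WT). At 4 h alone, Tgfbr1 in S2KO stayed called in 9 of 10. No member was measured on all 74 arrays, so that filter gave no value. Same-numbered arrays of a line had median correlations of deviations from 0.01 to 0.17, and differently numbered arrays from -0.10 to -0.02. The same-numbered medians were not all over 0.1, so the numbers were not taken as pairs. In every line, however, the same-numbered median was the higher. It was highest in S2KO, at 0.17 against -0.10, with 20 of 30 same-numbered correlations over 0.1. If same-numbered arrays share an effect, the SEs of the pooled comparison over 1 to 4 h and of the treated-array differences could be too small. The replicate block left the counts at 1 (own), 0 (1 to 4 h) and 1 (difference of responses). It was not fitted for the pooled, 4 h or treated-array comparisons, so a shared replicate effect on their calls was not tested.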
